A study of Rattus norvegicus with 44 samples.

Results

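Kidney transcripts of 7 genes of the hypoxia response were followed in obese ZSF1 rats of 4 treatment groups. The genes were Hif1a, Epas1, Egln1, Egln3, Vegfa, Ankrd37 and Bnip3, and they were found by their symbols among the 32883 entries of the deposited expression table. Each symbol stood on a single entry. All 7 genes passed the filter on low values, which 13482 genes passed. The genes were grouped by what they are known to do, and oxygen in the kidney was not among the measurements used here.

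Cells respond to low oxygen through hypoxia-inducible factors (HIFs), pairs of a regulated alpha subunit and the constant partner Arnt. When oxygen is sufficient, the prolyl hydroxylases made from the Egln genes mark the alpha subunit for destruction by the Vhl ubiquitin ligase, and when oxygen falls the subunit accumulates and switches on target genes for glycolysis, mitochondrial turnover and vessel growth. In the kidney, HIF-1 alpha is found mainly in tubular cells and HIF-2 alpha in endothelial and interstitial cells, and Vegfa made by podocytes and tubules maintains the neighbouring capillaries. Because the alpha subunits are controlled largely as proteins, transcript levels of Hif1a and Epas1 are no measure of HIF activity.

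All 44 animals were male obese ZSF1 rats, a strain with leptin receptor mutations that develops obesity, diabetes and progressive kidney disease. Dosing in the feed began at 22 weeks of age and lasted 6 months, and every animal, controls included, carried an implanted telemetry device for blood pressure. The groups were Vehicle (n = 11), Enalapril, 3 mg/kg/day (n = 9), Compound 1, 1 and later 3 mg/kg/day (n = 12), and a combination that joined 3 mg/kg/day of the former to 1 mg/kg/day of the latter (n = 12). Enalapril blocks the formation of angiotensin II, and Compound 1 stimulates soluble guanylate cyclase. Compound 1 was thus dosed lower in the combination than alone. Lean rats were not among the samples, so each comparison is between treatments within diseased kidneys.

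Each animal gave 1 library from a piece of the right kidney, and transcript abundance was given as FPKM, read counts scaled to transcript length and library size, on build rn6. Relative depth, read from ratios of low FPKM, ran from 0.622 to 1.44 of the median library, and 12490 to 13407 genes per library were above 1 FPKM. Absolute depth is unknown. Vehicle animal 1004 was the library least like its own group (median correlation 0.934 with its group), followed by Compound 1 animal 3105 (0.952). Vehicle 1004 held the lowest Vehicle value of Vegfa, Hif1a, Egln1, Ankrd37 and Bnip3, and calls that change without it are given with and without it. Tests were made with limma on log2(FPKM + 0.1), with adjustment over all 13482 genes, and a gene passed at an adjusted p under 0.05. A DEG also needed a fold change above 1.5 or under 0.66. In whole tissue, fewer cells of a type and less RNA per cell cannot be told apart.

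RefSeq promoter sequences (build GRCr8) were matched for all 7 genes, and 4 are shown because HIF binds DNA at a short core written ACGTG or GCGTG. Each runs from 250 bases before the transcription start to 50 bases after it, 5′ to 3′ on the strand of the gene, and capitals mark every match to either core on either strand (CACGT and CACGC are the same cores on the opposite strand, and CACGTG counts once on each strand). Ankrd37 and Bnip3 are shown as HIF target genes, Egln1 and Egln3 as related hydroxylases of which only the transcript of Egln3 passed a test on the values as deposited.
Ankrd37, chr16:53001257-53001556, plus strand: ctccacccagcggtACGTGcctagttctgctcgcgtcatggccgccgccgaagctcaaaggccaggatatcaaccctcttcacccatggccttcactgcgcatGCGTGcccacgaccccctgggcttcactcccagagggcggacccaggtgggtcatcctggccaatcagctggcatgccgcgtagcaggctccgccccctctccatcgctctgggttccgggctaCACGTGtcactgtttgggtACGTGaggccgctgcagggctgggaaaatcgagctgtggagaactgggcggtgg
Bnip3, chr1:203154913-203155212, minus strand: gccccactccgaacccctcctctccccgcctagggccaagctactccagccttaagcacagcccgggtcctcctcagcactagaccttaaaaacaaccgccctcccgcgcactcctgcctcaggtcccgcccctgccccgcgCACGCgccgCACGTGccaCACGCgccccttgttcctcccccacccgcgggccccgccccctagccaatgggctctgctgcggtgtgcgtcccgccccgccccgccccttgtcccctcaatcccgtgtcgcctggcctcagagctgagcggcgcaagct
Egln1, chr19:69804632-69804931, minus strand: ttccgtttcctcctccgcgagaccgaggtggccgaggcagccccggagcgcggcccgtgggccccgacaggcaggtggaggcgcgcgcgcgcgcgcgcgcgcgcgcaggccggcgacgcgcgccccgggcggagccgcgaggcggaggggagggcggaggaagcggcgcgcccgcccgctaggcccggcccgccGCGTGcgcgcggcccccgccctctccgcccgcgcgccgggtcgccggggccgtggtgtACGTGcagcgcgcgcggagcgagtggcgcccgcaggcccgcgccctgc
Egln3, chr6:77410966-77411265, minus strand: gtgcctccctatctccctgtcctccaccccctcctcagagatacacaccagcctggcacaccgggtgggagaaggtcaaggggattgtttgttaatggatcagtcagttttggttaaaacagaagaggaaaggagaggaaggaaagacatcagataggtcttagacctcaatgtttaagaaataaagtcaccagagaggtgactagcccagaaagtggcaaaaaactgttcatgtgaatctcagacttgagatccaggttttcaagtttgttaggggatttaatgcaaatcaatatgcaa

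The Ankrd37 promoter held 5 matches, 4 of ACGTG and 1 of GCGTG. That of Bnip3 held 4, 2 of each core, starting between 108 and 90 bases before the start. Egln1 held 2 matches, and Hif1a, which is not shown, held 3. None was found in the windows of Egln3 and Epas1 or in either of the 2 entries of Vegfa, which says only that these letters are absent from these 300 bases. Such matches are common: 41.6% of 33469 promoters of the same length held at least 1, as did 59.9% of the 10771 promoters of tested genes. The 4 windows also differed in base composition, with 84.7% G and C in Egln1 and 44.7% in Egln3.

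FPKM are scaled to transcript length, so levels can be compared roughly between genes, although measurement bias particular to a gene remains. In Vehicle kidneys the order of mean level was Epas1, Bnip3, Vegfa, Egln1, Hif1a, Egln3 and Ankrd37. Neighbours in this order were compared within the 11 Vehicle animals by exact two-sided sign-flip permutation tests, adjusted over 6 pairs. The order came from the same animals, and the tests measure spread between animals, not bias that is the same in all of them. Epas1 exceeded Bnip3 in 7 of 11 animals (adjusted p = 0.287) and Bnip3 exceeded Vegfa in 8 of 11 (adjusted p = 0.0668), so these neighbours did not differ beyond their spread. Vegfa exceeded Egln1 in 10 of 11 animals by a mean of 0.30 on the log2 scale (adjusted p = 0.00293, exact permutation test). Each later step held in 11 of 11 animals (adjusted p = 0.00195, exact permutation test), with mean log2 differences of 0.98 from Egln1 to Hif1a, 1.40 from Hif1a to Egln3 and 0.96 from Egln3 to Ankrd37. Epas1, which encodes HIF-2 alpha, thus stood above Hif1a at the transcript level in this tissue.

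**Figure D1:**
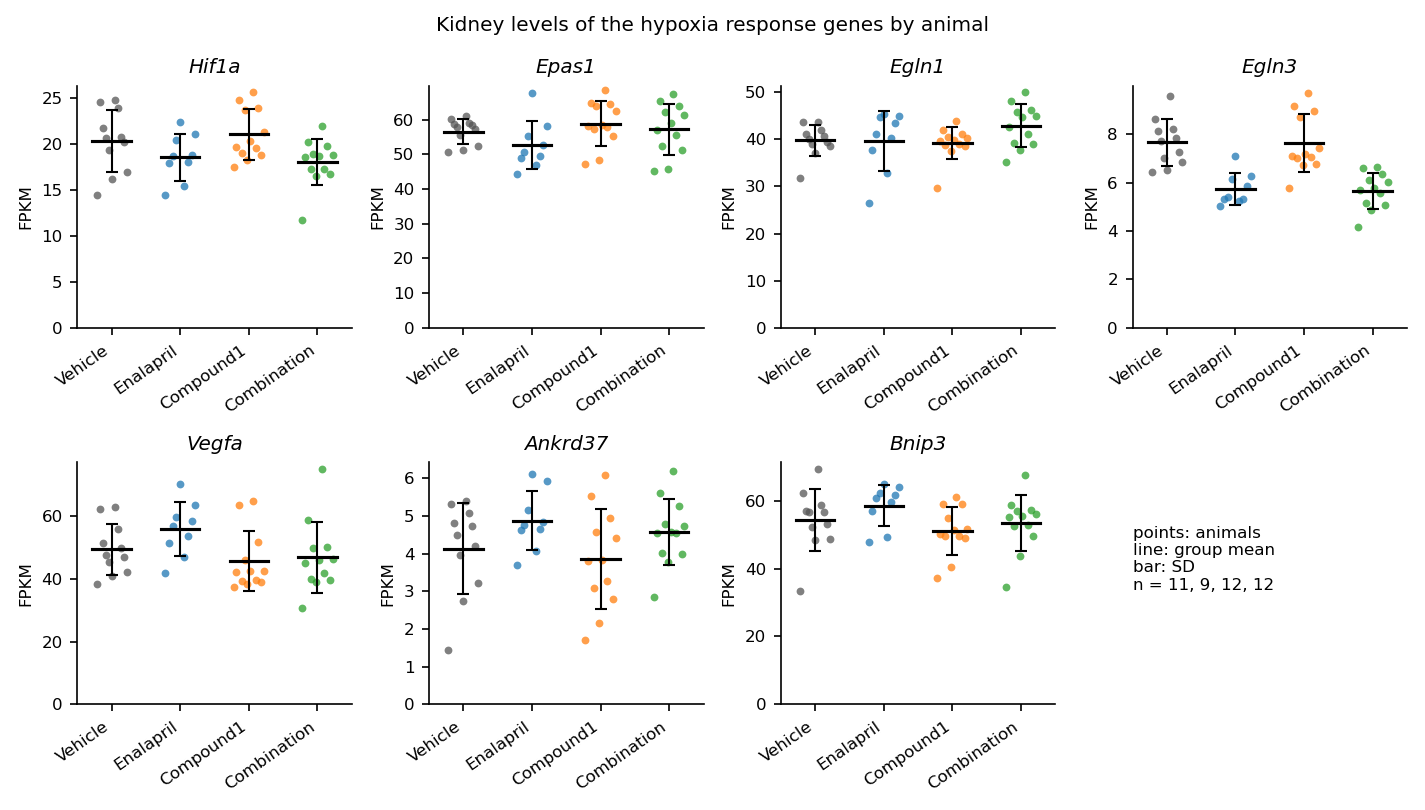
FPKM (vertical axes, from 0) of the 7 genes in each animal, by treatment group (11 Vehicle, 9 Enalapril, 12 Compound1 and 12 Combination animals); points are animals, the line is the group mean and the bar the SD. Egln3 sits lower under Enalapril (mean 5.75) and the combination (5.67) than with Vehicle (7.66) and Compound 1 (7.63), and the groups of the other genes overlap widely.

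Hif1a encodes the alpha subunit of HIF-1. It averaged 20.3 ± 3.41 FPKM (SD, n = 11) in Vehicle, 18.5 ± 2.55 under Enalapril, 21.0 ± 2.76 under Compound 1 and 18.0 ± 2.53 under the combination. Single animals ran from 14.5 to 24.8 FPKM (median 20.6) in Vehicle, 14.4 to 22.3 (18.6) under Enalapril, 17.5 to 25.6 (19.98) under Compound 1 and 11.7 to 22.0 (18.6) under the combination. The ranges overlapped in all groups, and the lowest value, in combination animal 4007, lay apart from the rest of its group. With the combination, 11 of 12 animals were below the Vehicle median.

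Epas1 varied least between Vehicle animals, with a coefficient of variation of 6.48%. Its means were 56.5 ± 3.66 FPKM in Vehicle, 52.7 ± 7.03 under Enalapril, 58.9 ± 6.51 under Compound 1 and 57.2 ± 7.39 under the combination. Vehicle animals lay between 50.5 and 61.1 FPKM (median 57.9), Enalapril animals between 44.4 and 67.7 (50.7), Compound 1 animals between 47.1 and 68.5 (58.3) and combination animals between 45.3 and 67.5 (58.0). The treated groups were wider than Vehicle on both sides, so that under Enalapril 4 of 9 animals lay below every Vehicle animal and 1 above all of them.

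Egln1 encodes PHD2, the main oxygen sensor among the hydroxylases. It averaged 39.8 ± 3.34 FPKM in Vehicle, 39.7 ± 6.37 under Enalapril, 39.2 ± 3.41 under Compound 1 and 42.9 ± 4.52 under the combination. The lowest, median and highest animals were 31.7, 40.1 and 43.7 FPKM in Vehicle, 26.6, 41.1 and 45.4 under Enalapril, 29.8, 39.7 and 43.8 under Compound 1 and 35.2, 43.7 and 50.1 under the combination. With the combination 6 of 12 animals lay above all Vehicle animals and the other 6 among them.

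Egln3 encodes PHD3, a hydroxylase that is itself a HIF target in many cells. Its level was 7.66 ± 0.961 FPKM (SD, n = 11) in Vehicle, 5.75 ± 0.658 (n = 9) under Enalapril, 7.63 ± 1.2 (n = 12) under Compound 1 and 5.67 ± 0.743 (n = 12) under the combination. Vehicle animals ran from 6.46 to 9.6 FPKM (median 7.72), Enalapril animals from 5.03 to 7.08 (5.39), Compound 1 animals from 5.80 to 9.71 (7.12) and combination animals from 4.16 to 6.63 (5.75). With Enalapril 8 of 9 animals were below every Vehicle animal, the exception being animal 2010, and under the combination 10 of 12 were. All 9 Enalapril animals and all 12 combination animals were below the Vehicle median. The groups nevertheless overlapped at their edges, as did those of the other 6 genes in each comparison; over all genes the groups were fully apart for 0.927% under Enalapril, 0.0371% under Compound 1 and 1.00% under the combination.

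Vegfa encodes the vascular endothelial growth factor that acts on the endothelial receptors Kdr and Flt1. It averaged 49.5 ± 8.15 FPKM in Vehicle, 55.9 ± 8.59 under Enalapril, 45.6 ± 9.51 under Compound 1 and 46.9 ± 11.3 under the combination. Animals ran from 38.5 to 63.0 FPKM (median 47.5) in Vehicle, 41.7 to 70.3 (56.7) under Enalapril, 37.3 to 64.9 (42.4) under Compound 1 and 30.8 to 74.9 (45.6) under the combination. With Enalapril 7 of 9 animals were above the Vehicle median, and 9 of 12 Compound 1 animals were below it. The highest value of all, in combination animal 4002, and the lowest, in 4007, came from the same group.

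Ankrd37 and Bnip3 stand for HIF targets. Ankrd37, an ankyrin repeat protein, was the lowest of the 7 transcripts at 4.13 ± 1.22 FPKM in Vehicle, 4.87 ± 0.784 under Enalapril, 3.85 ± 1.32 under Compound 1 and 4.57 ± 0.873 under the combination. In Vehicle and Compound 1 animals it was also the most variable (coefficients of variation of 29.4% and 34.4%), ranging in Vehicle from 1.45 to 5.38 FPKM (median 4.49), under Enalapril from 3.68 to 6.10 (4.76), under Compound 1 from 1.70 to 6.07 (3.81) and under the combination from 2.86 to 6.18 (4.56). Bnip3, a mitochondrial protein that directs mitochondria to autophagy, averaged 54.2 ± 9.15 FPKM in Vehicle, 58.6 ± 6.12 under Enalapril, 51.1 ± 7.13 under Compound 1 and 53.3 ± 8.20 under the combination. Its animals ran from 33.4 to 69.4 FPKM (median 56.6) in Vehicle, 47.8 to 64.8 (60.6) under Enalapril, 37.1 to 61.0 (50.8) under Compound 1 and 34.4 to 67.6 (55.2) under the combination. Treated animals of Bnip3 fell inside the Vehicle range in every group, but the lower end of that range was Vehicle animal 1004 alone. The next lowest Vehicle animal, 1003, was at 48.5 FPKM. Enalapril animal 2010, Compound 1 animals 3001 and 3105 and combination animals 4002 and 4007 lay below it.

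Enalapril vs Vehicle asks how diseased kidneys differed under this drug. Angiotensin II was not among the measurements used here, and the paper reports lower mean blood pressure in every treated group. Of the 7 genes, Egln3 passed the test and the other 6 did not, where 30.2% of all tested genes passed (3.57% higher, 26.6% lower). Egln3 fell by 0.41 on the log2 scale (SE 0.08, adjusted p = 0.0012 from limma), a mean that was 25.0% lower than in Vehicle, and was not a DEG by the fold threshold, which 4.53% of genes met. Log2 differences of the others were 0.18 (SE 0.10) for Vegfa, 0.29 (SE 0.18) for Ankrd37, 0.12 (SE 0.10) for Bnip3, -0.12 (SE 0.10) for Hif1a, -0.11 (SE 0.07) for Epas1 and -0.02 (SE 0.08) for Egln1. The median of all tested genes was itself displaced, at -0.15, so that Vegfa, Ankrd37 and Bnip3 lay between 0.27 and 0.44 above that median and Egln3 0.26 below it. Without Enalapril animal 2012, which held the highest Enalapril level of Epas1, Epas1 passed as well with a log2 difference of -0.16 (limma adjusted p = 0.039).

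Compound 1 alone was compared with Vehicle to see how kidneys differed under this drug by itself. None of the 7 genes passed the limma test (0.475% of all genes did), and none had an unadjusted p under 0.05, as 1793 of the 13482 genes had. Log2 differences lay between -0.12 (Vegfa) and 0.06 (Hif1a), with Egln3 at -0.01 (SE 0.08, adjusted p = 0.96). Egln3 was below the Vehicle median in 8 of 12 animals and above it in 4. Vegfa was below it in 9 of 12.

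The combination vs Vehicle again left Egln3 as the single gene of the 7 that passed, where 45.6% of all genes passed (6.38% higher, 39.3% lower). Egln3 fell by 0.43 (SE 0.08, adjusted p = 0.00028 from limma), was below the Vehicle median in 12 of 12 animals and was not a DEG, as 7.38% of genes were. Hif1a differed by -0.17 (SE 0.09), Vegfa by -0.09 (SE 0.11), Bnip3 by -0.02 (SE 0.10), Epas1 by 0.01 (SE 0.06), Egln1 by 0.11 (SE 0.06) and Ankrd37 by 0.19 (SE 0.17), beside a median of -0.18 over all genes. Without Vehicle animal 1004, Hif1a passed too, at -0.21 (adjusted p = 0.049). Values of Ankrd37 and Bnip3 moved without this animal, and neither passed in any fit. Ankrd37 went from 0.29 to 0.15 under Enalapril, from -0.11 to -0.24 under Compound 1 and from 0.19 to 0.06 under the combination, and Bnip3 from 0.12 to 0.06, from -0.08 to -0.15 and from -0.02 to -0.09. The Vehicle animals are shared by these 3 comparisons, so their values are not independent of each other.

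What each drug added to the other was read from a fit of all 4 groups. Against Compound 1 alone, the combination had lower Egln3 by 0.42 on the log2 scale (SE 0.08, adjusted p = 0.0006 from limma; 22.2% of genes passed, 4.72% higher and 17.4% lower, and 2.33% were DEGs), in 12 of 12 animals against the Compound 1 median, and 7 of them lay below every Compound 1 animal. No Vehicle mean enters this contrast, although its spread is estimated from all 4 groups, and the dose of Compound 1 differed between its groups. Hif1a was next at -0.22 (SE 0.09, adjusted p = 0.056), beside a median of -0.10 over all genes, and did not pass. In 44 fits that each left out 1 animal it passed in 8, and its adjusted p reached 0.126 in the others. The animals left out in those 8 were Vehicle 1004, Compound 1 animals 3006, 3010, 3011 and 3104, and combination animals 4001, 4002 and 4011, with adjusted p values from 0.035 to 0.046. Against Enalapril alone, none of the 7 genes passed (0.0519% of genes did). Egln3 differed by -0.02 (SE 0.09) and Vegfa by -0.27 (SE 0.11, unadjusted p = 0.022, adjusted p = 0.38), the latter being the 1 gene of the 7 with an unadjusted p under 0.05, which 1401 genes had. The interaction of the drugs was near 0 for Egln3, at -0.01 (SE 0.12, adjusted p = 0.996), and passed for none of the 7 genes nor for more than 0.00742% of all genes, and none of the 7 had an unadjusted p under 0.05.

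**Figure D2:**
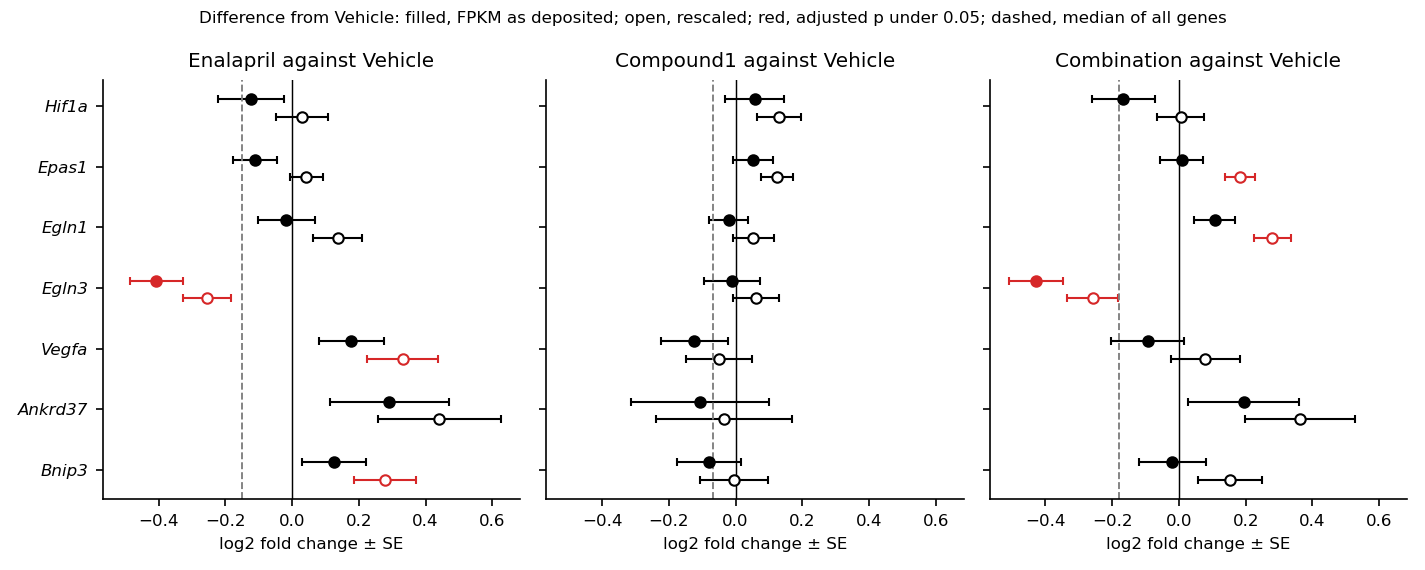
Log2 fold change (horizontal axis, ± SE) of the 7 genes in each treatment against Vehicle; filled points use FPKM as deposited, open points FPKM rescaled by the median of ratios, red marks an adjusted p under 0.05, and the dashed line is the median of all tested genes (-0.15, -0.07 and -0.18). Egln3 is the gene that is red with both scalings under Enalapril and the combination.

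Because the median of all genes was displaced, the 7 genes were also tested after rescaling each library by the median of ratios. The median of all genes then lay at 0.001 under Enalapril, -0.009 under the combination and -0.007 for the combination against Compound 1. Counts after rescaling given below for lists of genes carry this upward move of all genes as well, and no share of all genes stands beside them. Egln3 stayed lower under Enalapril at -0.26 (adjusted p = 0.016) and under the combination at -0.26 (adjusted p = 0.012). Vegfa and Bnip3 then passed as higher under Enalapril, at 0.33 (adjusted p = 0.030) and 0.28 (adjusted p = 0.037). Epas1 and Egln1 passed as higher under the combination, at 0.18 (adjusted p = 0.0034) and 0.28 (adjusted p = 0.00047), and Egln1 passed against Compound 1 at 0.23 (adjusted p = 0.012). Apart from Egln3, then, which genes passed depended on the scaling. The number of all genes that passed after rescaling is given below for Enalapril. For the combination, against Vehicle or Compound 1, it is not given here, so those calls have no background share beside them. Vegfa under the combination was at -0.09 as deposited and at 0.08 after rescaling, neither past the test.

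Markers of cell types moved with Egln3. All 6 leukocyte markers (Ptprc, Cd68, Csf1r, Cd3e, Cd79b and Cd74) fell under Enalapril and under the combination, and none passed under Compound 1. Their summed level ran from 1817 to 2924 FPKM in Vehicle, 1519 to 2026 under Enalapril, 1847 to 2467 under Compound 1 and 1597 to 2353 under the combination, and no leukocyte marker was at 0 in any animal. Of 10 proximal tubule markers, 8 rose under Enalapril and 8 under the combination, among them Slc22a8, an organic anion transporter, by 0.47 and 0.44 on the log2 scale. Their summed level was 1663 to 2880 FPKM in Vehicle, 2745 to 3445 under Enalapril, 1283 to 3009 under Compound 1 and 2615 to 3535 under the combination. Of 6 inner medulla markers, 2 fell under Enalapril and under the combination (33.3%, against 26.6% and 39.3% of all genes), the urea transporters Slc14a1 and Slc14a2, and the summed level of the list overlapped between all groups. The thick ascending limb and distal tubule list had 1 of 8 genes higher under Enalapril and 3 of 8 under the combination. After rescaling, 5 of 6 leukocyte markers were lower in both comparisons, all 10 proximal tubule markers were higher, and 3 and 6 of 8 thick ascending limb and distal tubule markers were higher. No inner medulla marker then passed under Enalapril, and 2 were lower under the combination. The part of these shifts in the fall of Egln3 was not tested. With the mean of the inner medulla markers as a covariate, Egln3 was at -0.32 under Enalapril (adjusted p = 0.059) and lost its call, and at -0.32 under the combination (adjusted p = 0.0091) and at -0.29 against Compound 1 (adjusted p = 0.047). That mean itself differed between groups, at 3.12 in Vehicle and 2.85 under Enalapril. The lost call was not particular to Egln3, as 0 of 10 proximal tubule and 1 of 6 leukocyte markers passed under Enalapril in this fit.

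Within the groups Egln3 followed the same markers. Over 44 animals with group means removed, Egln3 correlated with the leukocyte mean at Pearson r = 0.56 (permutation p = 0.00025, adjusted p = 0.00135 over 70 relations of gene and list) and Spearman rho = 0.55 (permutation p = 0.00025). The r was 0.52 without the 2 animals farthest from the median of the marker mean, and 0.41 after rescaling. With the proximal tubule mean r was -0.53 (permutation p = 0.00038, adjusted p = 0.00171; rho = -0.43), and -0.36 without the 2 farthest animals. With the inner medulla mean r was 0.53 (permutation p = 0.00037, adjusted p = 0.00171; rho = 0.56), and 0.45 without the 2 farthest. After rescaling, the proximal tubule and inner medulla values were -0.39 and 0.42. With the mean of the HIF target genes listed below, r was 0.40 (permutation p = 0.00924, adjusted p = 0.027), but -0.04 after rescaling. With the thick ascending limb and distal tubule mean r was -0.31 (permutation p = 0.0437, adjusted p = 0.0899), and -0.55 after rescaling. Bnip3 ran the other way, with r = 0.67 against the proximal tubule (permutation p = 0.00002, adjusted p = 0.00014; rho = 0.57) and r = 0.76 against the thick ascending limb and distal tubule (permutation p = 0.00001, the smallest the test can give; adjusted p = 7.78e-05; rho = 0.52); without the 2 farthest animals these were 0.69 and 0.57. Animals with more proximal tubule marker RNA thus had more Bnip3 and less Egln3 in the same library.

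Epas1, known from endothelial cells, ran with the endothelial marker mean at r = 0.78 (permutation p = 1e-05, the smallest possible, adjusted p = 7.78e-05; rho = 0.79, permutation p = 1e-05) and as closely with the podocyte mean at r = 0.80 (permutation p = 1e-05, adjusted p = 7.78e-05; rho = 0.79, permutation p = 1e-05). Without the 2 farthest animals these were 0.77 and 0.80, and after rescaling they were 0.42 and 0.63. Neither was the closest list for Epas1. Of the lists described below, the VEGF family and receptors gave r = 0.87, the HIF regulators 0.82 and the HIF target genes 0.74. After rescaling these were 0.70, 0.51 and 0.21, so Epas1 was not tied to endothelial markers in particular. Hif1a also ran with the endothelial mean (r = 0.50, permutation p = 0.00091, adjusted p = 0.00335; rho = 0.57; 0.54 without the 2 farthest animals), but at -0.29 after rescaling, so the sign of that relation depended on the scaling. With the VEGF, HIF regulator and HIF target lists Hif1a had r of 0.73, 0.76 and 0.77, and 0.37, 0.22 and 0.35 after rescaling.

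**Figure D3:**
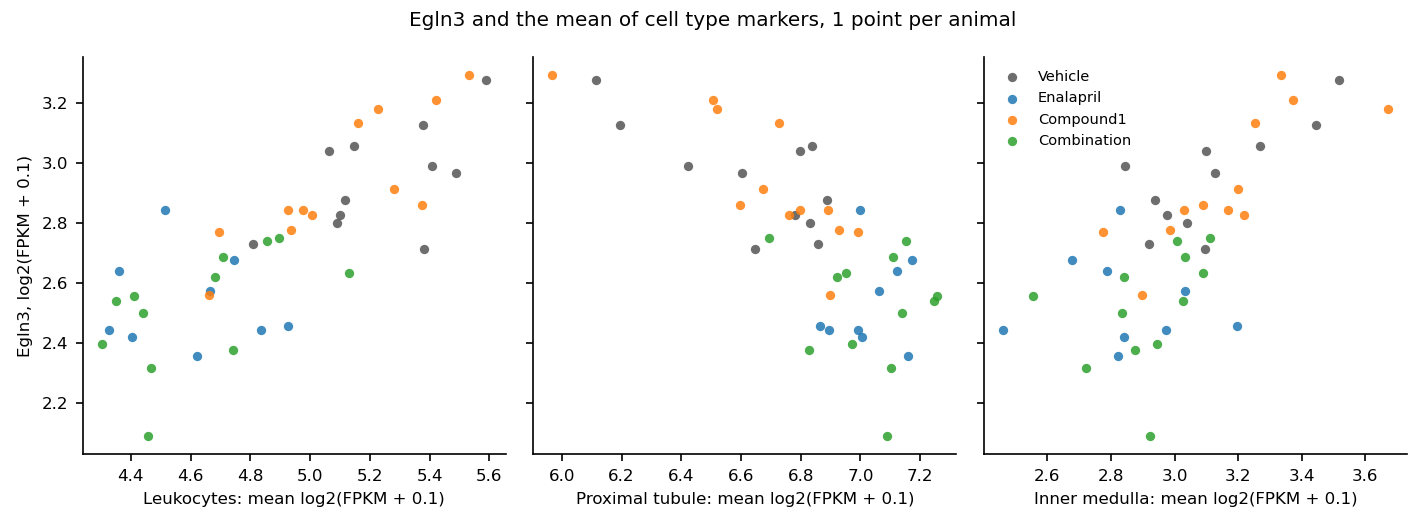
Egln3 (vertical axis, log2(FPKM + 0.1)) against the mean log2(FPKM + 0.1) of leukocyte, proximal tubule and inner medulla markers, 1 point per animal (44), coloured by group. Egln3 is higher where leukocyte and inner medulla markers are higher (r = 0.56 and 0.53 within groups) and lower where proximal tubule markers are higher (r = -0.53).

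Few regulators of HIF outside the 7 genes passed the test. Of 14 tested genes of this list, none rose and 2 fell under Enalapril, none passed under Compound 1, and none rose and 3 fell under the combination; medians were -0.12, -0.06 and -0.16, close to the -0.15, -0.07 and -0.18 of all genes. The shares lower, 14.3% and 21.4%, were below the 26.6% and 39.3% of all genes. Siah1, a ubiquitin ligase that degrades Egln proteins, fell by 0.24 under Enalapril (adjusted p = 0.044) and by 0.34 under the combination (adjusted p = 0.0099). Os9, a lectin that has been linked to HIF hydroxylation, fell by 0.16 (adjusted p = 0.015) and 0.13 (adjusted p = 0.010), and Cited2, which competes with HIF for its coactivators, fell by 0.21 under the combination (adjusted p = 0.040). Crebbp, one of those coactivators, was lower under the combination than under Compound 1 by 0.34 (adjusted p = 0.0089). Arnt, the HIF partner, was at 12.5 ± 1.22 FPKM in Vehicle and 10.8 ± 1.78 under Enalapril (log2 difference -0.22, adjusted p = 0.052), and Vhl at 19.1 ± 1.70 and 17.7 ± 1.23 FPKM (-0.11, adjusted p = 0.17). After rescaling, none of the 14 passed in any of the 3 comparisons with Vehicle.

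A list of 13 genes held the VEGF ligands other than Vegfa, their receptors, and the angiopoietins Angpt1 and Angpt2 with the receptors Tek and Tie1. Of these, 1 rose and 3 fell under Enalapril (7.69% and 23.1%, against 3.57% and 26.6% of all genes), none passed under Compound 1, and none rose and 2 fell under the combination (15.4% lower, against 39.3% of all genes). Kdr, the main signalling receptor for Vegfa, rose under Enalapril from 11.4 ± 1.29 to 13.5 ± 2.01 FPKM (log2 difference 0.24, SE 0.09, adjusted p = 0.040) and stood at 13.2 ± 2.06 under the combination (0.20, adjusted p = 0.071) and 11.9 ± 1.68 under Compound 1 (0.05, adjusted p = 0.80). Flt1, the second receptor, was at 8.62 ± 1.03 FPKM in Vehicle, 9.27 ± 0.695 under Enalapril, 8.86 ± 0.985 under Compound 1 and 9.6 ± 0.903 under the combination, and did not pass. Flt4, the lymphatic receptor, fell from 6.73 ± 0.908 to 5.12 ± 0.740 FPKM under Enalapril (-0.39, adjusted p = 0.0049) and to 5.80 ± 0.601 under the combination (-0.21, adjusted p = 0.031). Nrp2, a coreceptor of veins and lymphatics, fell by 0.50 under Enalapril (adjusted p = 0.00066), by 0.44 under the combination (adjusted p = 0.00098) and by 0.38 for the combination against Compound 1 (adjusted p = 0.0084). Tie1, an endothelial receptor, fell by 0.25 under Enalapril (adjusted p = 0.010). The split depended on the scaling, since after rescaling 2 rose and 1 fell under Enalapril and 4 rose and 1 fell under the combination.

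Endothelial and podocyte markers were read beside the VEGF genes. Of 9 endothelial markers, Ehd3, a marker of glomerular endothelium, rose in all 3 comparisons, from 13.9 ± 1.01 FPKM in Vehicle to 16.7 ± 2.05 under Enalapril, 17.6 ± 2.79 under Compound 1 and 18.6 ± 3.89 under the combination. It was the 1 endothelial marker that passed under Compound 1 (log2 difference 0.33, SE 0.07, adjusted p = 0.023). With Enalapril 4 endothelial markers fell, including Egfl7 by 0.38, Cdh5 by 0.29 and Esam by 0.28. Under the combination 3 rose (Ehd3 by 0.39, Vwf by 0.34 and Plvap by 0.16) and 1 fell, Esam by 0.17. Eng was higher under the combination than under Enalapril alone by 0.29 (limma adjusted p = 0.046), a comparison that 0.0519% of all genes passed. Of 9 podocyte markers, 2 rose and 1 fell under Enalapril and 1 rose and 3 fell under the combination, where the median of the list was 0.14. Of all genes 3.57% were higher and 26.6% lower under Enalapril, and 6.38% and 39.3% under the combination. Nphs1, which encodes nephrin of the filtration slit, rose by 0.35 under Enalapril (adjusted p = 0.034). These splits depended on the scaling: after rescaling no marker of either list was lower, while 2 endothelial and 5 podocyte markers were higher under Enalapril and 5 of each were higher under the combination.

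HIF target genes other than those above went both ways. Of 45 tested, 2 rose and 12 fell under Enalapril (4.44% and 26.7%, against 3.57% and 26.6% of all genes), with a median log2 difference of -0.14 against -0.15. None passed under Compound 1, where the median was 0.00. With the combination 9 rose and 15 fell (20% and 33.3%, against 6.38% and 39.3% of all genes), with a median of -0.05. The list thus fell about as often as other genes under Enalapril. After rescaling, 9 rose and 5 fell under Enalapril and 18 rose and 6 fell under the combination, out of the same 45 genes. The medians of the list were then 0.009 and 0.12, against 0.001 and -0.009 over all genes. Rescaling thus moved all genes upwards, and whether the list moved differently was not tested. The number of all genes past the test after rescaling is given below for Enalapril. For the combination it is not given, so the rescaled counts of this list there have no share of all genes beside them.

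The largest falls of this list under Enalapril were those of Cxcr4, Slc16a3, Hmox1 and Angptl4. Cxcr4, a chemokine receptor of leukocytes and endothelium, fell from 8.62 ± 2.07 FPKM in Vehicle to 5.53 ± 1.09 under Enalapril (log2 difference -0.62, adjusted p = 0.0015) and 5.19 ± 1.48 under the combination (-0.74, adjusted p = 0.00029). Hmox1, the haem-degrading enzyme, fell by 0.56 and 0.65 in these comparisons (adjusted p = 0.0049 and 0.00027), and Slc16a3, a lactate exporter, by 0.60 and 0.60 (adjusted p = 0.0031 and 0.00057). Angptl4, an inhibitor of lipoprotein lipase, fell from 44.9 ± 10.02 to 31.1 ± 9.07 FPKM under Enalapril (-0.55, adjusted p = 0.0093). Hk2, a hexokinase, fell by 0.45 (adjusted p = 0.020) and 0.53 (adjusted p = 0.0075), and Pfkfb3, a regulator of glycolysis, by 0.43 (adjusted p = 0.0086) and 0.39 (adjusted p = 0.0059). These and the genes that rose under Enalapril are named after their values were seen. The latter were Ak4, a mitochondrial adenylate kinase (0.34, adjusted p = 0.026), and Eno1, a glycolytic enolase (0.24, adjusted p = 0.011). Their means under the combination were 93.4 and 1064 FPKM, against 65.7 and 838 in Vehicle. Stc2, a secreted glycoprotein, rose under the combination by 0.65 (adjusted p = 0.016) from 0.870 ± 0.388 FPKM, a low level at which 3 of 11 Vehicle animals were above 1 FPKM. Against Compound 1 alone, the combination had lower Plod2, a collagen lysyl hydroxylase, by 0.55 (adjusted p = 0.00076) and lower Lox, a collagen crosslinking enzyme, by 0.51 (adjusted p = 0.0076). All 6 leukocyte markers fell in the same Enalapril and combination libraries, and their part in these values was not tested.

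Epo, the hormone that drives red cell production and a classic target of HIF-2 in the kidney, lay under the filter. It was at 0.377 ± 0.274 FPKM in Vehicle, 0.305 ± 0.126 under Enalapril, 0.240 ± 0.326 under Compound 1 and 0.329 ± 0.210 under the combination. A single animal, in the Compound 1 group, exceeded 1 FPKM, and 2 animals of that group were listed at 0. It was not tested.

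**Figure D4:**
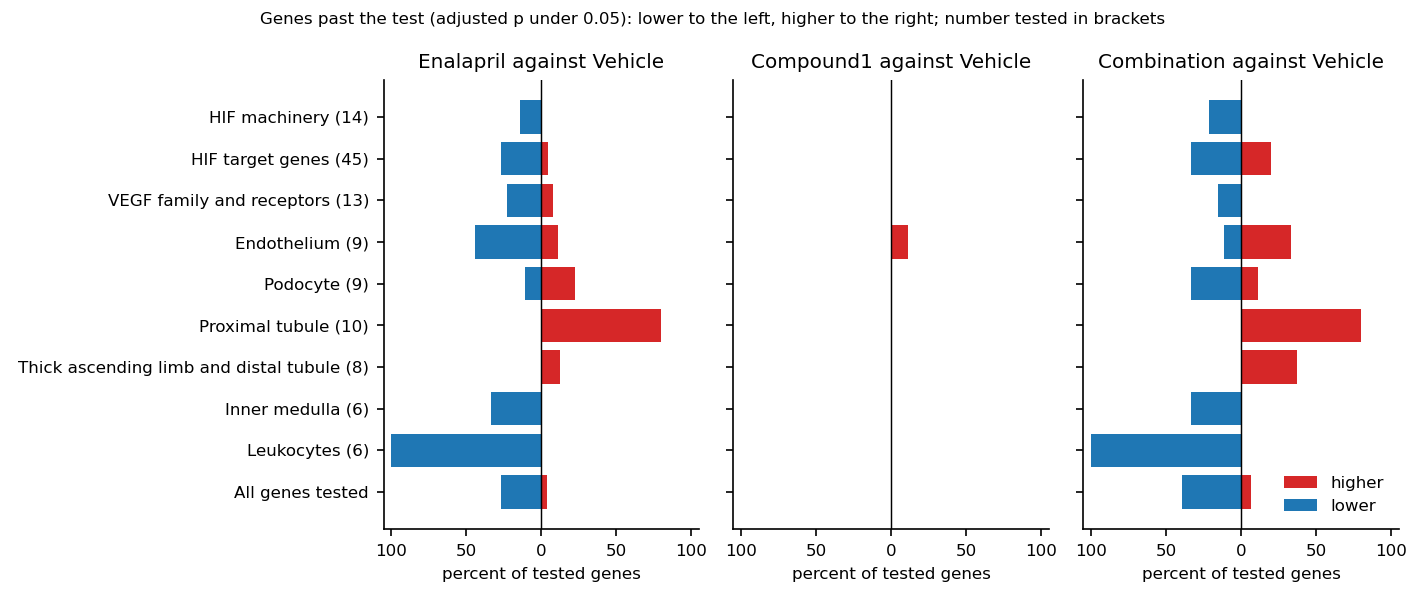
Percent of the tested genes of each list (number tested in brackets) that passed as higher (red, to the right) or lower (blue, to the left) in each treatment against Vehicle, with all 13482 tested genes in the bottom row. HIF targets under Enalapril (4.44% higher, 26.7% lower) sit beside all genes (3.57% and 26.6%), while all 6 leukocyte markers were lower and 8 of 10 proximal tubule markers higher under Enalapril and under the combination. The values are as deposited, and the splits of the HIF target, VEGF, endothelial and podocyte lists turned towards higher after rescaling. Rescaling also moved the median of all genes, from -0.15 to 0.001 under Enalapril and from -0.18 to -0.009 under the combination.

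From animal to animal the 7 genes did not move as 1 group. Of 21 pairs, 8 passed at an adjusted permutation p under 0.05 over 44 animals with group means removed, and 5 did after rescaling, both by Pearson r. By Spearman rho 5 pairs passed as deposited and none after rescaling (lowest adjusted p = 0.075) or in Vehicle alone (lowest 0.08). The closest pair, Hif1a and Epas1, had r = 0.59 (permutation p = 2e-05, adjusted p = 0.00042; rho = 0.66, permutation p = 1e-05, the smallest the test can give), and 0.51 without animals 1004 and 4007, but only 0.15 after rescaling (adjusted p = 0.428). Bnip3 passed with 4 other genes by r, and by rho with Egln3 alone (adjusted p = 0.0423). With Egln1 Bnip3 had r = 0.56 (permutation p = 0.00013, adjusted p = 0.00136; rho = 0.29, permutation p = 0.0523), 0.49 without the 2 animals farthest from the median of Egln1, and 0.58 after rescaling. With Ankrd37 it had r = 0.53 (permutation p = 0.00134, adjusted p = 0.00703; rho = 0.35, permutation p = 0.0268), but 0.28 without animals 1004 and 3001, so this relation rested largely on those libraries. With Egln3 the relation was inverse, at r = -0.46 (permutation p = 0.00254, adjusted p = 0.0107; rho = -0.40, permutation p = 0.0101), -0.45 without the 2 farthest animals and -0.54 after rescaling.

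Groups taken singly gave the same signs for these pairs. Egln3 and Bnip3 had r of -0.40 in Vehicle, -0.36 under Enalapril, -0.64 under Compound 1 and -0.40 under the combination, and Egln1 and Bnip3 had 0.64, 0.77, 0.47 and 0.60. Ankrd37 and Bnip3 ranged from 0.06 under Enalapril to 0.82 in Vehicle. As deposited, Vegfa was tied to Ankrd37 alone, at r = 0.38 (permutation p = 0.00948, adjusted p = 0.0249; rho = 0.40, permutation p = 0.00875), 0.48 without its 2 farthest animals and 0.36 after rescaling (adjusted p = 0.066). Its r with Hif1a was 0.16 and with Epas1 0.09, and with Egln1 it went from -0.27 to -0.40 after rescaling (permutation p = 0.0085, adjusted p = 0.0429; rho = -0.23, permutation p = 0.145). Without Compound 1 animal 3105 and combination animal 4002 that rescaled r was -0.21, so this relation rested on those libraries.

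**Figure D5:**
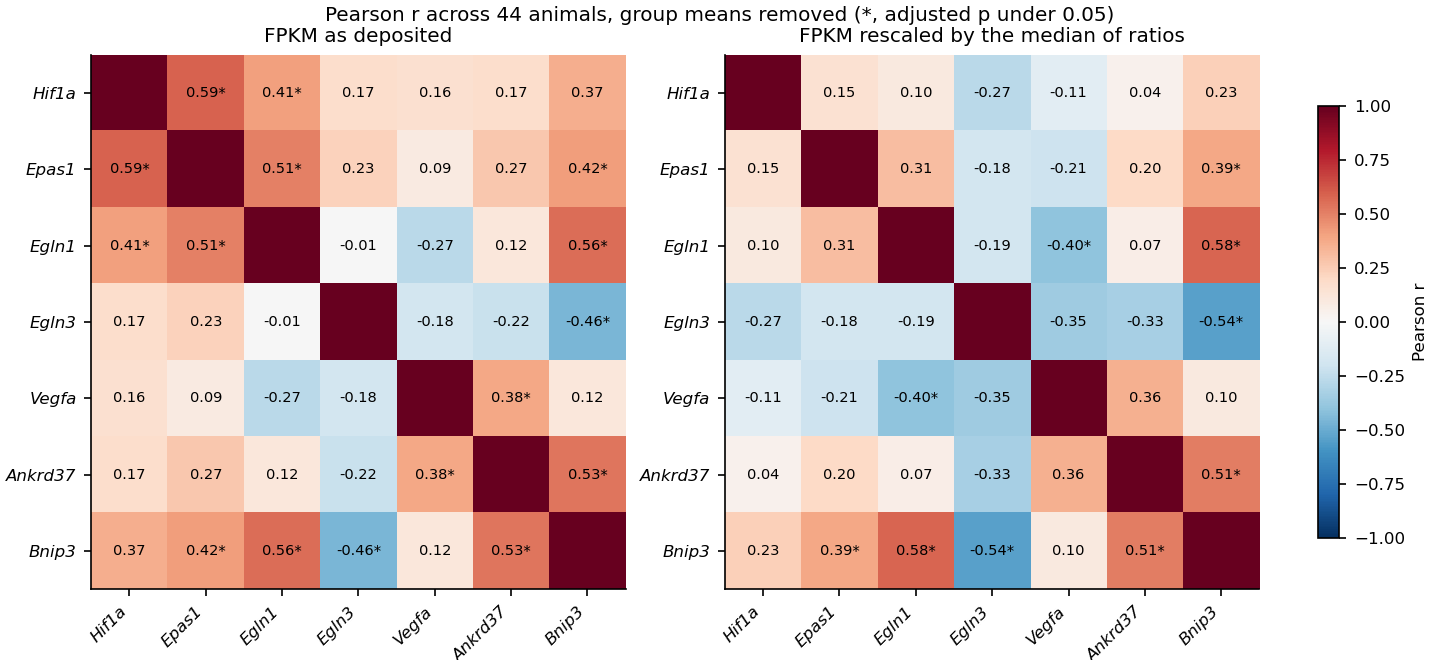
Pearson r between the 7 genes over 44 animals with group means removed (colour and number; * marks an adjusted p under 0.05), from FPKM as deposited (left) and rescaled by the median of ratios (right). The pair of Hif1a and Epas1 goes from 0.59 to 0.15 on rescaling, and Egln3 with Bnip3 stays negative at -0.46 and -0.54.

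Searching all 13482 genes for the pattern most like each of the 7 gave different neighbours for each. Given as a description over 44 animals with group means removed, Vegfa ran closest to the collagen genes Col27a1 (r = 0.87) and Col11a2 (0.85) and to Rufy3 (0.85). Bnip3 ran closest to Rida (0.95), Lypla1 (0.95) and AABR07066188.1 (0.95), and Egln1 to Arf1 (0.85), Taldo1 (0.85) and Clta (0.83). Hif1a had Clint1 (0.87), Aff4 (0.87) and Vezf1 (0.86), and Epas1 had Furin (0.88), Bahd1 (0.87) and Dnajb12 (0.86). Egln3 had weaker neighbours, the laminin chain gene Lamb3 (0.72), Pdlim4 (0.72) and the calcium channel gene Trpv6 (0.71), which came to 0.55, 0.61 and 0.55 after rescaling. Ankrd37 had Hook1 (0.73), Scoc (0.70) and Dnajc19 (0.70), and these came to 0.62, 0.57 and 0.55 without Vehicle animal 1004. None of the 7 genes was among the 3 nearest of another.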

How the data were processed

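RNA-Seq was analysed for 44 kidneys, 1 library per animal. The authors made stranded mRNA libraries, and the deposited values are FPKM on build rn6, a build named in the submitters' processing notes. Their aligner and counter were not given in the sources used here. DESeq2 on raw counts was the authors' own test, and since FPKM are not counts it was not repeated. The table had 2 empty columns.

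Values were turned into log2(FPKM + 0.1). Genes above 1 FPKM in at least 9 animals were tested by limma (version 3.58.1, R version 4.3.3) using its mean-variance trend and Benjamini-Hochberg adjustment over all of them. Treatments were compared with Vehicle on the groups concerned, and other contrasts on all 4 groups. The fold thresholds were 1.5 and 0.66. Fold changes are on the log2(FPKM + 0.1) scale, which understates changes of low genes. Relative depth came from ratios of low FPKM, and no counting interval can be given. Animals are the replicates.

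Correlations used 100000 permutations within groups. Marker means are means of log2(FPKM + 0.1) over the genes of a list. Scripts were tested on simulated data. The 7 genes and all lists were chosen with earlier results of these data known. Named genes were the 7 in every comparison, up to 4 genes per list and comparison that passed with the largest change, the 3 genes nearest to each of the 7 by r, and Epo, Arnt, Vhl, Kdr and Flt1. Not all genes that this rule gives are named above. Alternatives were other pseudocounts (1 and 0.01), another filter (5 FPKM) or none, scaling by the median of ratios or by quantiles, the fold threshold, sample weights, the inner medulla markers as covariate, other groups in the fit, and fits without animals numbered or listed apart from their group or without each animal in turn. Leaving out Vehicle 1004 and Compound 1 animal 3105 was added after the data were seen.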

Additional observations from a re-analysis of the deposited data

How the results depend on the processing

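Egln3 stayed lower under Enalapril, under the combination and for the combination against Compound 1 in every alternative run, and lost its call with the inner medulla markers as covariate (Enalapril) and by the fold threshold. Of the 7 genes, 1 passed in each of these 3 comparisons. Under Enalapril the count was 3 after rescaling by the median of ratios, 0 with the fold threshold or the covariate, and 2 without the animals listed apart, where Epas1 was at -0.17. Under the combination it was 3 after rescaling and 2 with quantile scaling, with sample weights or without Vehicle 1004 and Compound 1 animal 3105. Against Compound 1 it was 2 after rescaling, with quantile scaling or without those 2 animals, and 3 with sample weights. The fold threshold left 0 in both. Leaving out 1 animal gave 1 to 2 in each of the 3 comparisons and 0 to 0 in the others, with the animals that changed a count named above. Of 21 pairs, 8 co-varied, and 5 did after rescaling and in Vehicle alone, by Pearson r. The cause of these changes was not tested.

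Other differences changed sign, none of them past the test at the values given next. After rescaling, Hif1a was at 0.029, Epas1 at 0.043 and Egln1 at 0.14 under Enalapril, Egln1 at 0.053 and Egln3 at 0.061 under Compound 1, and Vegfa at 0.079, Hif1a at 0.0052 and Bnip3 at 0.15 under the combination. With quantile scaling, Hif1a was at 0.0096 and Egln1 at 0.073 under Enalapril, Egln1 at 0.028 and Egln3 at 0.072 under Compound 1, Bnip3 at 0.047 under the combination and Egln3 at 0.012 against Enalapril. With sample weights Egln1 was at 0.039 under Enalapril and Egln3 at 0.024 under Compound 1, and with the covariate Egln1 was at 0.050 under Enalapril and Ankrd37 at -0.0054 under the combination. Without animals listed apart Egln3 was at 0.0059 under Compound 1 and Epas1 at -0.0099 under the combination, and without those numbered apart Egln1 was at 0.013 under Compound 1 and the interaction of Egln3 at 0.0033. Without Vehicle 1004 and Compound 1 animal 3105, Epas1 was at -0.0054 under the combination. Leaving out 1 animal gave ranges of -0.049 to 0.053 for Egln1 under Enalapril, -0.053 to 0.015 for Egln1 and -0.044 to 0.023 for Egln3 under Compound 1, -0.087 to 0.036 for Bnip3 and -0.014 to 0.038 for Epas1 under the combination, -0.045 to 0.017 for Egln3 against Enalapril and -0.045 to 0.028 for its interaction.

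Counts over all genes moved more. Under Enalapril 4071 passed as deposited, 2705 after rescaling (1403 higher, 1302 lower), 2515 with quantile scaling and 382 with the covariate, and under the combination 6153, against 4001 with quantile scaling and 3075 with the covariate. No paired analysis was possible because each animal was in 1 group and the groups share no numbers. Depth limits low genes such as Ankrd37 most, and absolute depth is unknown.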

Other observations

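Other tubular and immune genes moved further than the 7 genes of the hypoxia response. Egf, the epidermal growth factor made by the distal nephron, stood at 39.2 ± 12.6 FPKM (SD, n = 11) in Vehicle and rose to 64.5 ± 11.3 under Enalapril (log2 difference 0.77, limma adjusted p = 0.0022) and 87.6 ± 17.6 under the combination (1.2, adjusted p = 1.53e-05). Under Compound 1 it was at 64.3 ± 16.9 FPKM (0.74, adjusted p = 0.051). Cd79b, a component of the B cell receptor, fell by 1.05 under Enalapril (adjusted p = 0.0014) and by 0.75 under the combination (adjusted p = 0.0022). For the combination against Compound 1, 7 of 10 proximal tubule markers were higher and 5 of 6 leukocyte markers lower. Of the 2 tested genes of adrenal and fat, Cidec, a lipid droplet protein, rose by 0.30 and 0.59 and Adipoq, the adipocyte hormone adiponectin, fell by 0.40 and 0.31 under Enalapril and the combination.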
